A study of Homo sapiens with 6 samples.

Results

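The response of C4-2B cells to enzalutamide was described gene by gene, as the difference between the library titled C4-2B ENZ and the vehicle library of the same experiment, C4-2B_Veh. C4-2B is an established human prostate cancer line, a derivative of LNCaP that metastasises to bone and grows without added androgen. Cells of both groups were kept in medium with 9% charcoal-stripped serum, from which steroids have been removed, and 1% regular serum, and RNA was taken 48 h after 20 µM enzalutamide (MDV3100, ENZ) or vehicle was added. The series holds 6 RNA-seq libraries in 3 experiments, each with 1 vehicle and 1 treated library. The other compounds were SR2211 and XY011, each used at 5 µM against a vehicle library of its own. The deposited ENZ table held 22644 gene names after lines of 1 symbol were summed. Of these, 19245 were at 1 FPKM (fragments per kilobase of transcript, scaled to the mapped fragments of the library) or more in either library and were no small RNA gene, and 12237 of them were protein-coding by RefSeq or, for unmatched names, GENCODE 29. Changes are log2((ENZ + 1)/(vehicle + 1)), which understates the change of genes near 1 FPKM, and genes whose change was 1 or more in size are called higher or lower. With 1 library a side there is no replicate check, no test and no p-value, so every value describes this pair of libraries.

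Androgens such as testosterone and dihydrotestosterone act on genes through paired DNA motifs called androgen response elements, at which coactivators are recruited. Enzalutamide is an antiandrogen that competes with these hormones and hinders the binding at such elements. In prostate epithelium androgen signalling drives secreted kallikreins, lineage factors, polyamine and lipid enzymes, and holds down a smaller set of genes.

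By this rule 706 genes were higher with ENZ (3.67% of those tested) and 897 were lower (4.66%), with a median change of -0.02. Among protein-coding genes 396 were higher (3.24%) and 368 lower (3.01%), also with a median of -0.02, and the shares of the gene lists below are to be read against these 2 percentages. All lists and their members were chosen with earlier results of these data known. The table was limited by its vehicle column, since all but 1 of its 22738 lines were at 0.1 FPKM or more there, while 1086 lines were under 0.1 FPKM with ENZ and 742 stood at 0. Genes that vehicle cells did not express are therefore not seen here. Between the vehicles of the other experiments the same rule passed 9.23% of protein-coding genes in either direction (SR2211 and XY011 vehicles), and it passed 32.8% and 38.1% when the ENZ vehicle was set against these. Levels of the ENZ vehicle lay above those of the other vehicles, by a median of 0.55 and 0.61 log2 units. Tables were normalised separately, so differences between vehicles mix cells and processing.

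Depth was read back from the values. Genes with few fragments took repeated ratios between the libraries, and 274 of 758 low-level genes with a ratio near 1 stood at 1.0465, the value of an ENZ fragment relative to a vehicle fragment. This gave the ENZ library 0.956 of the depth of its vehicle. With annotated transcript lengths the scale came to about 8980000 fragments for vehicle and 8590000 for ENZ. The scale and the shortest fragment length were chosen to give most whole numbers in genes at the ratio of 1.0465 with 1 annotated transcript. At this best fit 84 of 103 such genes with 1 to 6 fragments were whole within 0.3%, which is no separate check of the scale. A fragment was then worth 0.140 FPKM on a transcript of 1000 bases, 1.11 FPKM at 300 bases and 52.6 FPKM at 100 bases, so that a high FPKM value on a short transcript can rest on a handful of fragments. Fragment numbers below are estimates from these units and GENCODE 29 transcript lengths, and where a gene has transcripts of several lengths the estimate depends on which of them is taken. Exact 95% intervals (Clopper-Pearson, on the fragments of both libraries) are given only for genes with 1 annotated length and cover counting error alone. PCR copies were not marked with molecular identifiers, so fragments are not independent molecules.

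**Figure D1:**
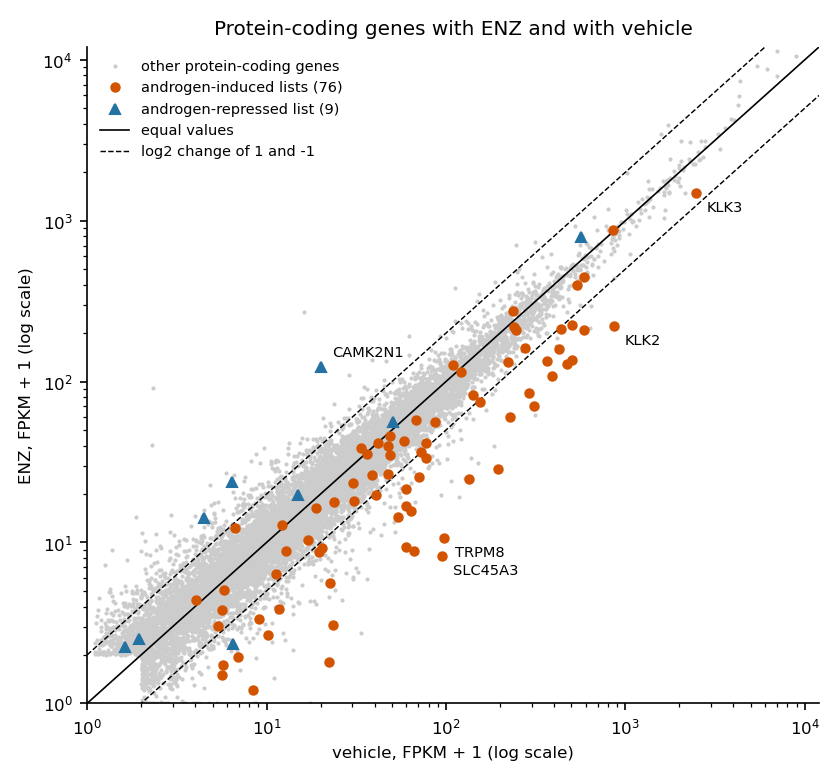
Protein-coding genes at 1 FPKM or more in either library, vehicle on the horizontal and ENZ on the vertical axis, both as FPKM + 1 on log scales. The 76 androgen-induced members (orange) lie mostly below the line of equal values, and 38 of them lie at or under the lower dashed line, a log2 change of -1.

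The KLK3 and KLK2 promoters are shown because these neighbouring kallikrein genes carry nearly the same androgen response element close to the start and nevertheless differed in size of change. KLK3 encodes prostate-specific antigen and KLK2 the protease that activates its precursor. The sequences below are the 250 bases before each gene's start, from RefSeq (GRCh38.p14, plus strand), KLK3 at chr19:50854665-50854914 and KLK2 at chr19:50873189-50873438, a build other than the one named for the files. Capitals mark the stretch that best matches the palindrome made of AGAACA, 3 bases of any kind and TGTTCT.
KLK3: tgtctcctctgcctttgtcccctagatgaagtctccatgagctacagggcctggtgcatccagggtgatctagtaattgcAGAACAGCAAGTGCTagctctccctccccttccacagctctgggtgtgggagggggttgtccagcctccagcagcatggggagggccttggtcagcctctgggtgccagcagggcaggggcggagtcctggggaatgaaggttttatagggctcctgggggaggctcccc
KLK2: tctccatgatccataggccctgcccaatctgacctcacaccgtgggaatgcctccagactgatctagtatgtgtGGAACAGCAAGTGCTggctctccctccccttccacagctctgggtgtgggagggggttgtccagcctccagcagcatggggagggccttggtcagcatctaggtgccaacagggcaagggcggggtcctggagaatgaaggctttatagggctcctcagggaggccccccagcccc
The capitals begin 170 bases before the start of KLK3 and 176 before that of KLK2. They match the 12 fixed bases with 2 mismatches in KLK3 and 3 in KLK2, and the elements differ from each other by A1G, counted from 1 at the element's 5′ end with the KLK3 base first. The 2 stretches are 79.8% identical when aligned. A match with up to 3 mismatches is common. On either strand it was found in 10.8% of the 35116 promoter windows of 300 bases in the table. These windows reach past the start, and a gene can have several. Among the 14659 windows of protein-coding genes tested the share was 6.3%. Windows of androgen-induced members held it in 9 of 99 cases (9.09%), and windows of those lower with ENZ in 5 of 52 (9.62%), FKBP5, PTGER4 and TRPM8 among them. The PTGER4 match runs across the start. The 6-base motif AGAACA alone stood in 14.8% of all windows, 9.68% of those of protein-coding genes tested and 9.09% of those of the androgen-induced members. A full palindrome without mismatch stood in 1 window of the whole table, which belonged to no protein-coding gene tested.

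KLK2 had 868 FPKM with vehicle and 220.4 FPKM with ENZ, a log2 change of -1.97. KLK3 had 2484 and 1487 FPKM, a change of -0.74 that did not reach the size rule although KLK3 was the most abundant kallikrein in both libraries. KLK15, a further member of the locus, went from 19.5 to 8.23 FPKM (-1.15) and KLK1, tissue kallikrein, from 4.37 to 2.03 FPKM (-0.83). KLK4, which codes for a protease also made in developing teeth, was at 236 and 275 FPKM (0.22) and was the kallikrein that leaned upward. Thus 2 of 5 kallikreins tested were lower and none higher, with a median of -0.83. Of the other kallikreins 7 were not listed and 3 were below 1 FPKM in both libraries.

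Across the 4 lists of androgen-induced genes, 38 of 76 members tested were lower with ENZ (against 3.01% of protein-coding genes), none was higher, and 69 had a change below 0. Their median was -1.01, beside -0.02 over all protein-coding genes. The ENZ library lay below all 3 vehicle libraries of the series for 46 of the 76 members and for 31 of the 38 that were called lower. Genes called lower lie below their own vehicle by the rule, so only the vehicles of the other experiments bear on the 31. Over 11807 protein-coding genes listed in all tables, called or not, the ENZ library lay below all 3 vehicles in 17.2%. It lay above all 3 in 39.9%, with the shift of scale noted above. The 17.2% can be set beside the 46 of 76 but not beside the 31 of 38. With only genes of 10 or more estimated fragments the count of members lower was again 38.

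Regulators made up the list with the lowest median, -1.17, with 16 of 29 members lower and 28 below 0. FKBP5, a co-chaperone of steroid receptors and a usual readout of their activity, had 134 FPKM with vehicle and 23.9 FPKM with ENZ (-2.44), and even on its shortest transcript this was an estimated 4284 fragments against 731 (8619 and 1471 on the longest). PMEPA1, a membrane inhibitor of TGF-beta signalling, went from 195 to 27.6 FPKM (-2.77). MAF, a basic leucine zipper factor, went from 22.6 to 2.09 FPKM (-2.94). MAF had an estimated 206 and 18.2 fragments on its shortest transcript and 1257 and 111 on its longest. RHOU, a small GTPase gene with 1 annotated transcript, had 807 fragments with vehicle and 164 with ENZ, a ratio of 0.213 after scaling for depth (interval 0.179 to 0.252). RAB3B, which codes for a vesicle GTPase, had 1232 and 310 fragments, a ratio of 0.263 (0.232 to 0.298). ELL2, an elongation factor, went from 58.6 to 15.8 FPKM (-1.83), NDRG1, a stress- and differentiation-related gene, from 290.2 to 84.5 FPKM (-1.77), and SPDEF, an ETS factor of luminal cells, from 153 to 74.0 FPKM (-1.04), just inside the rule. CAMKK2, the calcium-dependent kinase that activates AMPK, went from 76.3 to 32.3 FPKM (-1.21).

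The remaining regulators that were lower stood at mixed levels. SGK1, a serum- and steroid-responsive kinase, went from 4.69 to 0.731 FPKM (-1.72), PTGER4, a prostaglandin receptor, from 9.17 to 1.67 FPKM (-1.93), and MYBPC1, a myosin-binding protein, from 4.65 to 0.492 FPKM (-1.92). On its shortest transcript MYBPC1 would have had 9.89 fragments with vehicle and 0.998 with ENZ, and on its longest 160.1 and 16.2. HERC3 went from 69.9 to 24.4 FPKM (-1.48), TBC1D4 from 8.04 to 2.33 FPKM (-1.44) and ZBTB10 from 18.5 to 7.69 FPKM (-1.17). HOMER2, a scaffold gene at 72.0 and 35.7 FPKM, lay just outside the rule at -0.99. The 13 members that were not called ranged from there to MED28, a Mediator subunit at 32.4 and 37.4 FPKM (0.20), and included IGF1R, the insulin-like growth factor receptor (10.3 and 5.41 FPKM, -0.81).

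Among membrane and secreted proteins 8 of 18 members were lower, none was higher and the median was -0.71. PGC, which codes for the secreted protease precursor pepsinogen C, had 21.3 FPKM with vehicle and 0.796 FPKM with ENZ (-3.63). SLC45A3, prostein, a transporter gene of prostate epithelium, had 94.4 and 7.22 FPKM (-3.54), or 1903 and 139 fragments on its shortest and 2659.8 and 194 on its longest transcript. TRPM8, a cold-sensing cation channel, had 97.1 and 9.69 FPKM (-3.20). C1orf116, also called SARG for its regulation by androgen, had 65.1 and 7.89 FPKM (-2.89). Of the 4, PGC rested on the fewest fragments, 37.4 and 1.34 on its shortest and 223 and 7.98 on its longest transcript. TMPRSS2, the serine protease whose promoter is often fused to ETS genes in prostate cancer, went from 473 to 127 FPKM (-1.89). AZGP1, zinc-alpha-2-glycoprotein, went from 366 to 134 FPKM (-1.44), the efflux pump ABCC4 from 58.7 to 20.5 FPKM (-1.47), and MSMB, a seminal plasma protein, from 5.90 to 0.953 FPKM (-1.82), for which at most 15.1 and 2.33 fragments were estimated. Members that did not follow were the metalloreductases STEAP1 (121 and 114 FPKM) and STEAP2 (109 and 126 FPKM) and the cytokine receptor LIFR, at 5.67 and 11.3 FPKM (0.88) the highest change of the 4 lists.

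Metabolic enzymes were lower in 13 of 25 cases with a median of -1.05, and 24 of 25 were below 0. INPP4B, a lipid phosphatase that limits PI3K signalling, went from 7.42 to 0.213 FPKM (-2.80). GNMT, glycine N-methyltransferase, had 459 and 62 fragments on its only annotated transcript, 58.8 and 8.32 FPKM, a ratio of 0.141 (0.107 to 0.185). Both genes were lower by a wide margin at unlike levels. Of the enzymes of fatty acid elongation and activation on the list, ELOVL7 went from 62.8 to 14.6 FPKM (-2.03), ELOVL5 from 499.8 to 135 FPKM (-1.88) and the acyl-CoA synthetase ACSL3 from 388 to 108 FPKM (-1.84). Polyamine synthesis was represented by spermine synthase SMS, at 227 and 58.8 FPKM (-1.93), ornithine decarboxylase ODC1, at 438 and 209.9 FPKM (-1.06), and AMD1. AMD1, at 246 and 208 FPKM (-0.24), was not called. UAP1, which makes UDP-GlcNAc, went from 589 to 208 FPKM (-1.50), SORD, sorbitol dehydrogenase, from 502 to 224 FPKM (-1.16), and the retinal dehydrogenase ALDH1A3 from 53.1 to 13.5 FPKM (-1.90). GUCY1A3, a subunit of soluble guanylate cyclase, went from 39.7 to 18.6 FPKM (-1.05). FASN, fatty acid synthase, at 849 and 869 FPKM (0.03), and the desaturase SCD, at 238 and 218 FPKM (-0.13), stood at nearly the same level in both libraries. For SCD the fragment ratio was 0.915 (0.891 to 0.941).

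**Figure D2:**
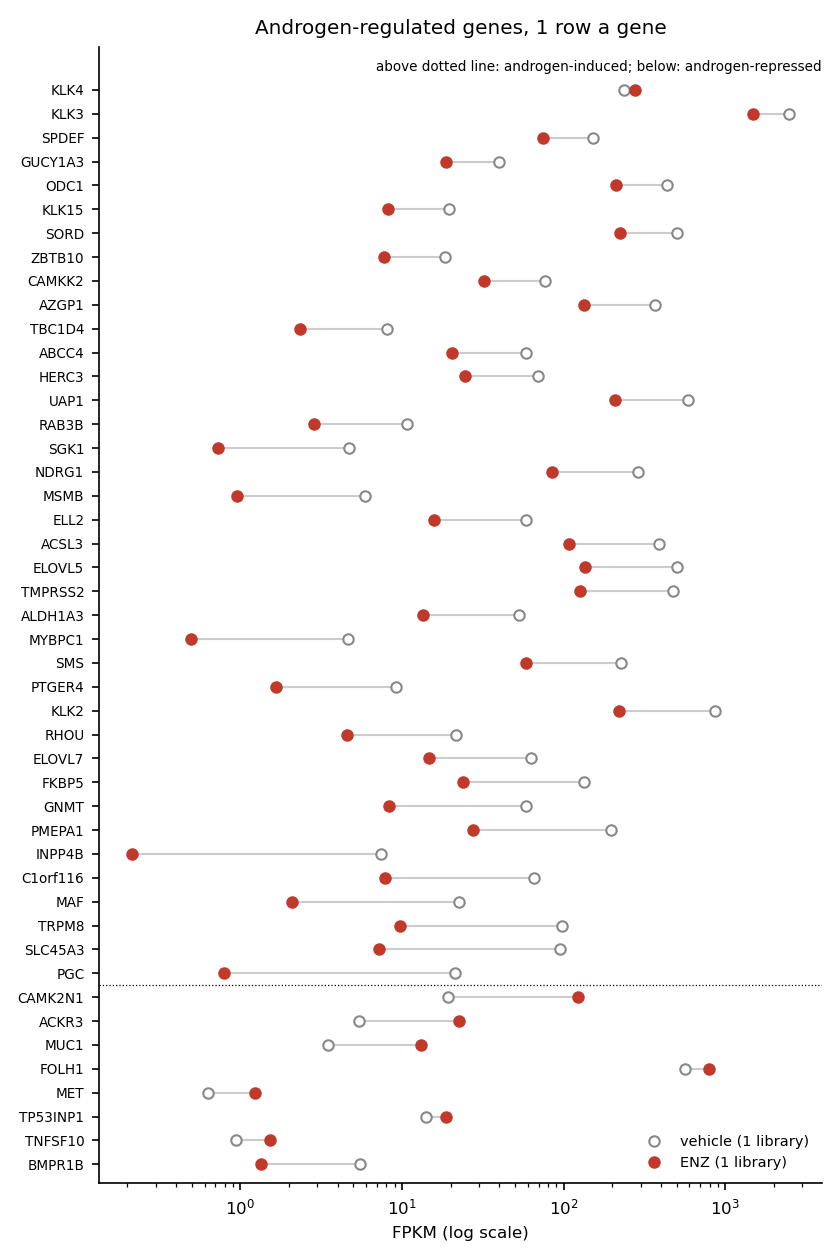
FPKM on a log scale for 36 of the 38 androgen-induced genes called lower, KLK3 and KLK4 (above the dotted line) and 8 of the 9 androgen-repressed genes tested (below it), with vehicle as open and ENZ as filled circles, 1 library each. Above the line ENZ lies to the left in all rows but KLK4, and below it to the right in all rows but BMPR1B.

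Among genes that androgen represses more were higher than lower. Of 20 on the list 9 could be tested, 3 were higher (33.3%, against 3.24% of protein-coding genes), 1 was lower and 8 were above 0, with a median of 0.46. CAMK2N1, an inhibitor of calcium/calmodulin kinase II, had 19.2 FPKM with vehicle and 122 FPKM with ENZ (2.60), the sixth largest increase among protein-coding genes at 5 FPKM or more. ACKR3, the atypical chemokine receptor CXCR7, went from 5.41 to 22.6 FPKM (1.88), and MUC1, a membrane mucin, from 3.47 to 13.2 FPKM (1.66), which would be 0.583 and 2.11 fragments on its shortest transcript and 124 and 448 on its longest. FOLH1, prostate-specific membrane antigen, leaned upward at 564 and 793 FPKM (0.49). BMPR1B, a bone morphogenetic protein receptor, was lower, at 5.53 and 1.34 FPKM (-1.48).

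No cofactor of androgen signalling passed the rule in either direction (0 of 22, median -0.06). The pioneer factors FOXA1 (309 and 299 FPKM) and GATA2 (120.5 and 229 FPKM, 0.92) and the homeobox factor HOXB13 (131 and 164 FPKM) remained expressed. HOXB13 had 3827 and 4600 fragments, a ratio of 1.26 (1.20 to 1.31). Of 22 steroid and related nuclear receptors 1 was higher, NR2F1, an orphan receptor at 0.192 and 2.32 FPKM (1.48), and 16 were above 0 with a median of 0.31. PPARG went from 2.45 to 5.62 FPKM (0.94).

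Few neuroendocrine and plasticity genes passed the rule. Of 29 genes 16 were not listed and 12 were tested, with 1 higher, none lower and a median of -0.24. SOX9, a factor of progenitor cells, was the member that was higher, at 2.27 and 8.59 FPKM (1.55), which corresponded to 75.8 and 274 fragments. The repressor gene REST was at 10.4 and 9.17 FPKM (-0.17) and HES6 at 214 and 114 FPKM (-0.90). In WNT and TGF-beta signalling 4 of 28 members were higher and 2 lower, with a median of 0.08. WNT5A, a ligand of the non-canonical pathway, went from 3.93 to 16.1 FPKM (1.80), the BMP target ID1 from 7.75 to 20.8 FPKM (1.32) and ID3 from 18.0 to 41.5 FPKM (1.16). TCF7L2, a transcription factor of the WNT pathway, went from 4.98 to 26.2 FPKM (2.19), but on its shortest transcript this would be 0.924 and 4.64 fragments and on its longest 176 and 885. BMPR1B and the ligand TGFB1 (2.27 and 0.454 FPKM, -1.17) were the lower members.

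**Figure D3:**
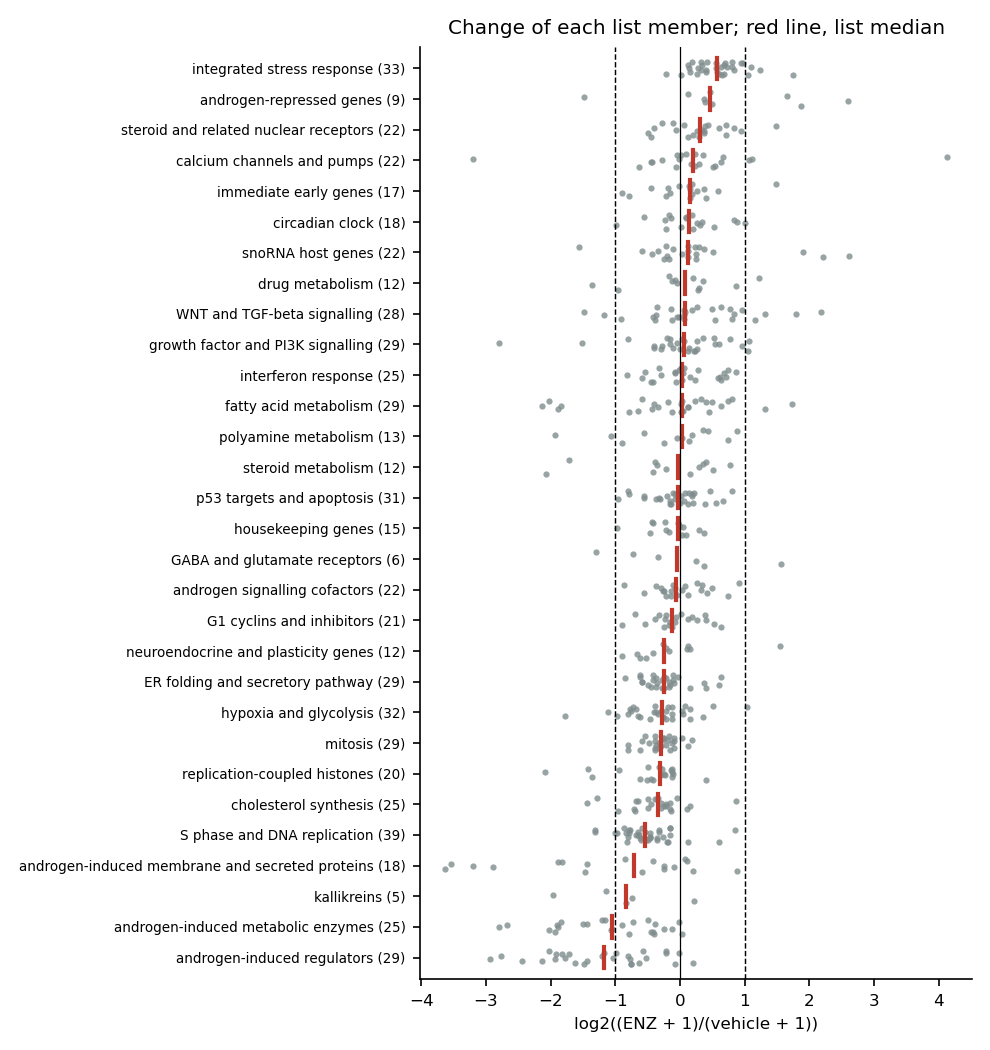
log2((ENZ + 1)/(vehicle + 1)) of each tested member of the 30 lists that are not cell type markers, with list medians as red lines, dashed lines at -1 and 1, and the number of members tested in brackets. The lists of androgen-induced genes hold the lowest medians, -1.17 to -0.71, and the integrated stress response the highest, 0.57.

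The androgen-induced lists were chosen with earlier results of these data known. Of the 15 largest decreases among protein-coding genes at 5 FPKM or more, 8 stood on these lists (PGC, SLC45A3, TRPM8, MAF, C1orf116, INPP4B, PMEPA1 and GNMT). Among the others, GLYATL1, an acyltransferase gene, went from 117 to 18.1 FPKM (-2.62), and its level with ENZ was near the 18.6 and 16.3 of the other vehicles. CHRNA2, a nicotinic receptor subunit, went from 9.97 to 0.433 FPKM (-2.94) and was at 6.99 and 6.92 in the other vehicles. ZNF350, a zinc finger repressor, went from 32.5 to 1.73 FPKM (-3.62), was at 3.72 and 3.73 in the other vehicles, and its vehicle value would be 4.24 fragments on the shortest and 624 on the longest transcript. UNC13D, a gene of granule release, went from 13.0 to 1.16 FPKM (-2.70) and was at 0.111 in the SR2211 vehicle. SULT6B1, a sulfotransferase gene at 16.4 FPKM with vehicle, was listed at 0 with ENZ, and this would be 0.986 of a vehicle fragment on its shortest transcript and 121 on its longest. CSRP2, which codes for a LIM domain protein, was at 7.56 FPKM with vehicle and listed at 0 with ENZ (1.75 vehicle fragments on the shortest and 331 on the longest transcript). LINC00854, which the reference counts as protein-coding, went from 7.70 to 0.00771 FPKM (-3.11). Of these 7, CHRNA2 had a like level in the other vehicles, while the ENZ vehicle stood well above them for GLYATL1, ZNF350, UNC13D and CSRP2 (0.271 in the SR2211 vehicle). Some androgen-induced genes called lower showed this as well. KLK2 was at 211 and 216, TMPRSS2 at 134 and 125 and NDRG1 at 56.9 and 52.7 in the SR2211 and XY011 vehicles. Their levels with ENZ, 220.4, 127 and 84.5 FPKM, were near or above these. Of the 38 such genes, 31 lay below all 3 vehicles with ENZ.

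For several of the largest increases the estimated fragments spanned a wide range over the annotated transcripts. RYR2, a calcium release channel, went from 1.29 to 39.2 FPKM (4.13), LRRC14 from 15.2 to 269 FPKM (4.06), and MYOM2, a muscle M-band protein, from 0.866 to 13.5 FPKM (2.96). In the 4 libraries of the other experiments RYR2 stayed between 0.320 and 1.22 and LRRC14 between 2.99 and 5.17. The estimated ENZ fragments of RYR2 were 0.971 on its shortest transcript and 5499.5 on its longest, those of LRRC14 were 3.60 and 11816, and those of MYOM2 were 3.99 and 557. A gene value does not say which transcript carried it. CAMK2N1 had 105 and 635 fragments on its shortest transcript and 367 and 2225 on its longest. IFI27L2, a mitochondrial protein gene of the interferon-inducible family, went from 1.09 to 9.18 FPKM (2.29), with 2.62 and 21.2 fragments on the shortest and 7.16 and 57.9 on the longest transcript, and COLEC12, a scavenger receptor, from 1.41 to 10.3 FPKM (2.22), with 3.66 and 25.4 on the shortest and 70.3 and 488 on the longest. Both had been near or under 3 in the other vehicles and were at 8 or more with SR2211 and XY011 (IFI27L2 8.10 and 8.32, COLEC12 10.9 and 8.14). PDE2A, a phosphodiesterase, went from 1.000 to 7.89 FPKM (2.15), and the protease BACE2 from 0.670 to 6.73 FPKM (2.21). Further members of the 15 were ARPC4-TTLL3 (0.384 and 7.98 FPKM), CLUL1 (0.263 and 6.23), PLD1 (1.03 and 10.4), DPY19L1 (1.92 and 13.8) and TCF7L2.

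**Figure D4:**
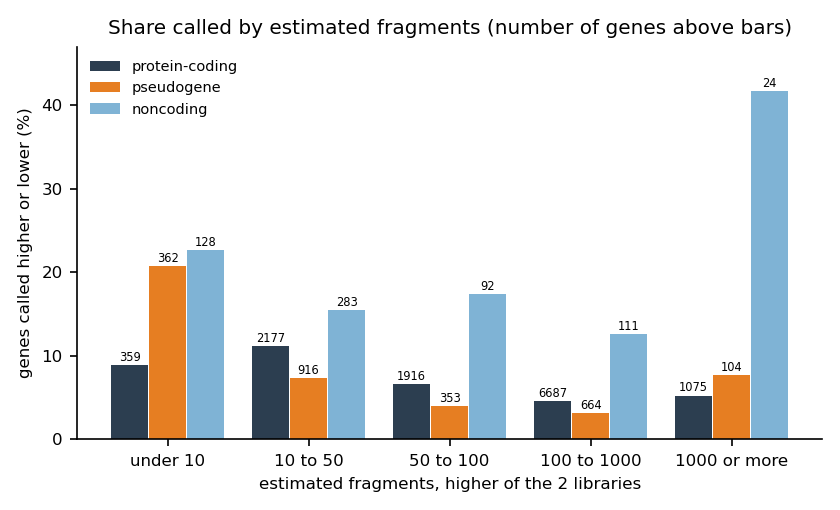
Share of genes called higher or lower (percent, from 0) by the estimated fragments of the higher library at the median annotated transcript length, for protein-coding genes, pseudogenes and noncoding genes, with the number of genes above each bar. In protein-coding genes the share is 8.91% under 10 fragments, 11.1% from 10 to 50 and 4.59% from 100 to 1000, and in pseudogenes it is 20.7% under 10 and 3.16% from 100 to 1000.

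In protein-coding genes and pseudogenes the size rule passed a larger share under 50 estimated fragments than from 50 to 1000, as the plot of called share by fragments shows. Pseudogenes with under 10 estimated fragments were lower in 57 cases and higher in 18 of 362. The list was made from genes seen in vehicle, and a gene with fragments in the ENZ library alone is not on it. Names without a gene type in the reference, mostly clone-based names, were called in 13.7% of 3932 cases, beside 6.24% of protein-coding genes. Noncoding genes were called in 17.5% of 652 cases, and those with 1000 or more fragments in 41.7% of 24.

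Among noncoding genes and names without a gene type the 5 largest decreases were all listed at 0 with ENZ. AC136704.1 was at 443 FPKM with vehicle, AC135050.1 at 420.5, AL356020.1 at 317, and RP11-292K15.1 and RP11-583F2.6 followed with identical vehicle values. In all, 47 genes were at 5 FPKM or more with vehicle and listed at 0 with ENZ, 2 of them protein-coding. The largest increases were CTD-3193O13.11 (0.454 and 17.4 FPKM), AC079776.7 (1.11 and 24.6), AC025262.1 (13.6 and 154), LINC01057 (0.339 and 12.7) and AL132780.1 (86.3 and 814). Clone-based names can differ between annotations, so no fragment numbers are given for them. Of 22 host genes of small nucleolar RNAs 3 were higher and 1 lower, with a median of 0.12. SNHG14, summed over its lines, went from 137 to 844 FPKM (2.61), and its change was 4.78 when the highest line of the symbol was taken in place of the sum. SNHG1 went from 113 to 523 FPKM (2.21) and SNHG12 from 7.99 to 32.7 FPKM (1.91), while GAS5, which is known to build up when growth stops, went from 915 to 309.8 FPKM (-1.56). Reads were not stated to be counted by strand or apart from the small RNAs inside these genes.

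In the list of S phase and DNA replication genes 3 of 39 members were lower and none was higher. The other 36 did not pass the rule, and the median was -0.54, with 36 of the 39 values below 0. These were CCNE2, cyclin E2 (11.0 and 3.82 FPKM, -1.32), the DNA ligase LIG1 (27.5 and 10.5 FPKM, -1.31) and the primase subunit PRIM1 (42.0 and 20.3 FPKM, -1.01), just inside the rule. Mitosis genes held no call in 29 and a median of -0.30, with 26 below 0, and G1 cyclins and inhibitors no call in 21 and a median of -0.13. Cyclin D1, CCND1, was at 357 and 302 FPKM and MYC at 168 and 191 FPKM. CCNA2, which codes for cyclin A and has 1 annotated transcript, had 534 and 387 fragments, a ratio of 0.758 (0.664 to 0.866). Histone genes of the replication-coupled clusters were lower in 3 of 20 cases with a median of -0.31: HIST1H3D (17.4 and 3.35 FPKM, ratio 0.196, 0.0671 to 0.476), HIST1H2BJ (27.5 and 10.1 FPKM) and HIST1H3A, with 3 vehicle fragments and 0 with ENZ, for which the interval of the ratio reached 2.53. Poly(A) selection passes over most histone messages, which have no poly(A) tail.

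Integrated stress response genes, which the factor ATF4 raises when amino acids run short or the endoplasmic reticulum is stressed, had the highest median of all lists at 0.57. Of 33 members 32 were above 0, 4 were higher (12.1%) and none was lower. PCK2, mitochondrial phosphoenolpyruvate carboxykinase, went from 112 to 381 FPKM (1.75), DDIT4, an inhibitor of mTOR, from 310.5 to 737 FPKM (1.24), asparagine synthetase ASNS from 147 to 316 FPKM (1.10) and the glutathione-cleaving enzyme CHAC1 from 17.9 to 38.4 FPKM (1.05). ATF4 itself was at 307 and 467 FPKM (0.60) and PHGDH, which opens serine synthesis, at 249 and 481 FPKM (0.95). The sestrin SESN2 had 311 and 537 fragments, a ratio of 1.81 (1.57 to 2.08). None of 29 chaperones and secretory genes of the endoplasmic reticulum passed the rule in either direction, and their median was -0.25 with 24 values below 0. HSPA5, the chaperone BiP, had a fragment ratio of 0.779 (0.756 to 0.802).

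Several members of the lipid, sugar and polyamine lists also stand on the androgen-induced lists. Cholesterol synthesis had 2 of 25 lower, among them the sterol carrier STARD4 (8.50 and 2.91 FPKM, -1.28), with 22 below 0 and a median of -0.34. Fatty acid metabolism had 4 of 29 lower and 2 higher with a median of 0.03, 3 of the lower ones being the androgen-induced ELOVL5, ELOVL7 and ACSL3. The other was the elongase ELOVL2, with 208 and 20 fragments, a ratio of 0.101 (0.0602 to 0.159). The higher members of that list were the carnitine transferase CPT1C (4.39 and 16.9 FPKM, 1.73) and the carbohydrate-sensing factor MLXIPL (0.797 and 3.48 FPKM, 1.32). In hypoxia and glycolysis 2 of 32 were lower, the androgen-induced NDRG1 and lactate dehydrogenase LDHA (639 and 295 FPKM, -1.11), 1 was higher, EPAS1 (3.78 and 8.81 FPKM, 1.04), and 24 were below 0 with a median of -0.27. Polyamine genes had 2 of 13 lower, SMS and ODC1, both on the androgen-induced lists, while the oxidase SMOX leaned upward (11.1 and 21.4 FPKM, 0.89), with a median of 0.03.

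Of 12 steroid metabolism genes 2 were lower. CYP11A1, the side-chain cleavage enzyme that starts steroid synthesis, was at 3.19 FPKM with vehicle and listed at 0 with ENZ, and HSD17B6 went from 7.37 to 1.55 FPKM (-1.71). Drug metabolism had AHR, the aryl hydrocarbon receptor, higher (1.68 and 5.29 FPKM, 1.23) and CYP1B1 lower (5.32 and 1.46 FPKM, -1.36) among 12. Calcium channels and pumps had 3 of 22 higher, RYR2, CACNA1H (1.31 and 3.87 FPKM, 1.07) and ATP2A3 (0.141 and 1.46 FPKM, 1.11), and TRPM8 lower. Enzalutamide is known to bind GABA receptors in the brain, and of 6 GABA and glutamate receptor genes tested GRIN1 was higher (4.12 and 14.1 FPKM, 1.56) and GRIN3A lower (4.89 and 1.39 FPKM, -1.30). Growth factor and PI3K signalling had 2 of 29 higher, FGF13 (4.35 and 10.3 FPKM, 1.07) and PIK3CA (3.38 and 8.06 FPKM, 1.05), and 2 lower, INPP4B and the phosphatase DUSP4 (24.5 and 7.98 FPKM, -1.51).

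Targets of p53 and apoptosis genes (31 tested, median -0.03), interferon response genes (25, median 0.04) and housekeeping genes (15, median -0.03) held no call. Immediate early genes held 1 in 17, FOSL1 (0.120 and 2.14 FPKM, 1.49), and clock genes 1 in 18, C1orf51 or CIART (5.48 and 12.1 FPKM, 1.01). Luminal markers were present in both libraries, with KRT8 at 216 and 189 FPKM, KRT18 at 245 and 185 FPKM and EPCAM at 59.7 and 56.4 FPKM. KRT19 was the one luminal marker of 14 that was lower (8.73 and 2.97 FPKM, -1.29). Basal markers summed to 23.5 and 32.9 FPKM with TP63, KRT15, KRT17 and NGFR not listed. Of 5 basal markers tested ITGB4 was higher (5.51 and 19.5 FPKM, 1.65), while the other 4 were below 0 and the median was -0.43. Stromal markers summed to 106 and 154 FPKM with COL1A1 higher (14.1 and 34.8 FPKM, 1.25). Of 9 stromal markers tested 6 were above 0, with a median of 0.16. Leukocyte markers summed to 10.2 and 9.91 FPKM, most of it CD68, with PTPRC not listed, and endothelial markers to 1.80 and 1.31 FPKM, with PECAM1, CDH5 and KDR not listed. The 13 mitochondrial messenger RNAs were all above 0, with changes from 0.09 (MT-ND2) to 1.13 (MT-ND6) and a median of 0.62. The part of these markers and of the mitochondrial messages in the other values was not tested.

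**Figure D5:**
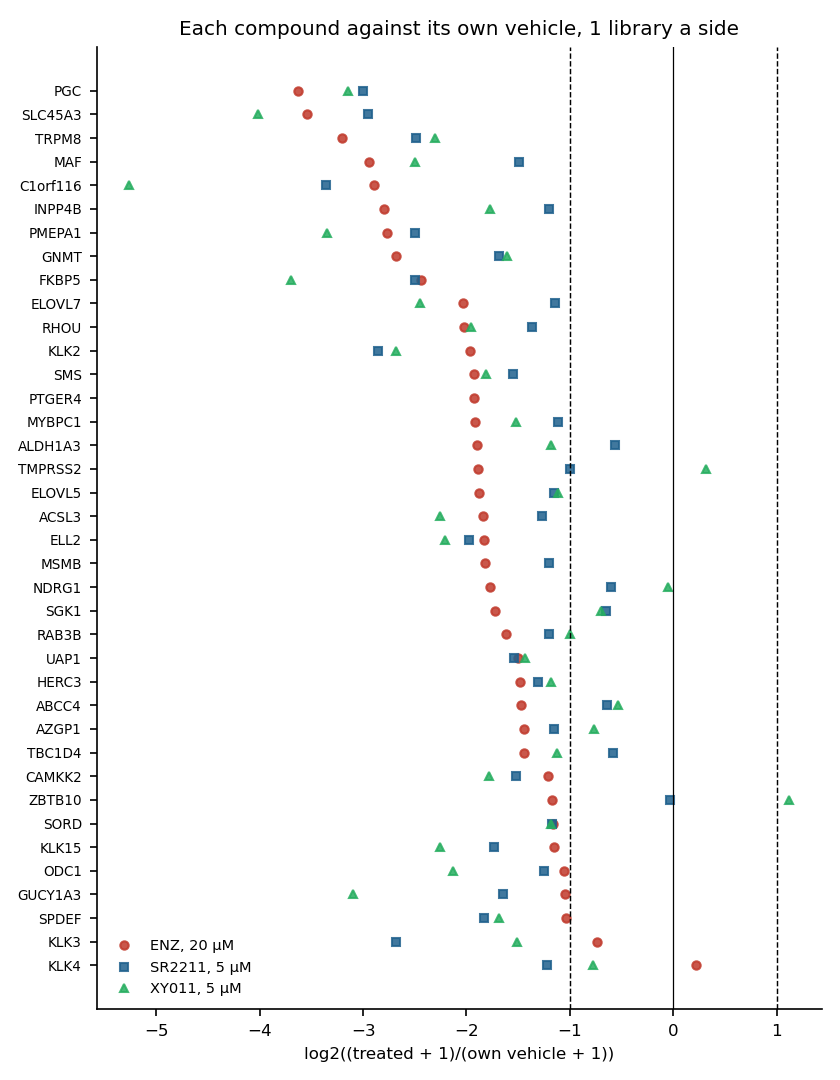
log2((treated + 1)/(own vehicle + 1)) of 36 of the 38 androgen-induced genes lower with ENZ, KLK3 and KLK4, for ENZ (20 µM), SR2211 (5 µM) and XY011 (5 µM), 1 library a side, with dashed lines at -1 and 1. A missing symbol means that the gene was under 1 in both libraries of that pair. KLK3 lies at -0.74 with ENZ and at -2.68 and -1.51 with the other compounds.

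SR2211 and XY011 were given at a lower dose than ENZ, and the 3 tables (RPKM for SR2211, FPKM for ENZ and XY011) were normalised separately, so their values stand beside those of ENZ without a test. In those pairs 5.22% and 7.71% of protein-coding genes were higher and 5.79% and 12.4% lower. Androgen-induced members were lower in 40 of 75 cases with SR2211 (median -1.06) and in 42 of 74 with XY011 (median -1.18). Of 74 members tested in all 3 pairs, 28 were lower in each. These made up 28 of the 36 lower with ENZ, of the 39 lower with SR2211 and of the 42 lower with XY011. No such overlap is given over all protein-coding genes, so these counts have no background and are not read as particular to the lists. The same holds for genes that passed the rule with ENZ alone. ABCC4, NDRG1, SGK1 and ZBTB10 passed the rule with ENZ and in neither other pair, a difference that was not tested. NDRG1 was at -1.77 with ENZ, -0.60 with SR2211 and -0.05 with XY011, and ZBTB10 at -1.17, -0.03 and 1.12. ABCC4, at -1.47, -0.64 and -0.53, and SGK1, at -1.72, -0.65 and -0.70, were below 0 in all 3 pairs. TMPRSS2 was at -1.89 with ENZ, while it went from 134 to 66.7 RPKM with SR2211 and from 125 to 156 FPKM with XY011. KLK3, at -0.74 with ENZ, passed the rule with SR2211 (-2.68) and XY011 (-1.51). KLK4, at 0.22 with ENZ, passed it with SR2211 (-1.22) and not with XY011 (-0.78). HOXB13 was at 0.33, -1.48 and -1.55. Among androgen-repressed genes 3 of 8 were higher with ENZ, 2 with SR2211 and 2 with XY011, CAMK2N1 in all 3 pairs (2.60, 2.20 and 2.50). S phase genes had medians of -0.54, -1.40 and -1.85 over the same 39 genes, and stress response genes 0.59, 1.49 and 1.78 over 30.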

How the data were processed

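Poly(A)-selected RNA was sequenced with a TruSeq kit as paired-end reads of 100 bases, per the labels' protocols. For the ENZ pair the RNA isolation text speaks of SR2211, but title, source and treatment give ENZ, which was followed. The authors deposited FPKM for the ENZ and XY011 experiments and RPKM for the SR2211 experiment, computed from their mapped reads. BWA, Bowtie, Cufflinks, Cuffdiff, GRCh37 and hg19 are named in the submitters' processing notes. Which tool made which table, and the versions, annotation and strand use, are not given in these sources.

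Lines of 1 symbol were summed (94 lines), 22 names that spreadsheet software had turned into dates were kept line by line, and 219 small RNA genes, which held 33.2% of summed FPKM with vehicle and 37.0% with ENZ, were left out. Gene types came from RefSeq and GENCODE 29, and 14927 tested names matched RefSeq. A pseudocount of 1, a minimum of 1 FPKM in either library and a log2 change of 1 were used. No count test could be run on 1 library a side. Depth was read from repeated FPKM ratios, with fragment lengths taken as normal (mean 200, SD 80, shortest 41 bases). The shortest length and the scale were chosen to give most whole numbers, and the scripts were tested on simulated data. Members and lists were chosen with earlier results of these data known. Named genes are the 15 largest increases and decreases of protein-coding genes at 5 FPKM or more, 5 noncoding genes each way, all called androgen-regulated members, up to 4 called members of the other lists, and a few usual androgen readouts (KLK3, KLK2, TMPRSS2 and FKBP5 among them). Some genes that this rule names are not reported here. Further members given with values were picked after their values were seen. Python 3.11.15 with numpy 2.4.6, pandas 2.3.3 and scipy 1.17.1 was used. Alternatives changed the pseudocount, the filter, the scaling, the summing of lines, the set of names and the size rule.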

Additional observations from a re-analysis of the deposited data

How the results depend on the processing

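With 1 library a side nothing could be left out in turn. No paired analysis was possible because each group has 1 library. The counts over all genes depended on how low values were treated. With a pseudocount of 0.1 there were 1308 genes higher and 1452 lower, and with a pseudocount of 5 there were 184 and 272. With genes at 5 FPKM or more there were 458 and 523, with only names that the reference table holds 451 and 458, and with 10 or more estimated fragments, an alternative chosen after seeing the data, 470 and 455. A size rule of log2 2 left 49 higher and 154 lower, 12 androgen-induced genes lower and 1 androgen-repressed gene higher. Centring, quantile scaling, rescaling to the same sum, the highest line of a symbol and adding small RNA genes kept both counts within 1.5 times. The highest line moved SNHG14 from 2.61 to 4.78. Leaving out the filter could not change the counts, since genes under 1 FPKM in both libraries cannot pass the rule at a pseudocount of 1. The 38 androgen-induced genes lower ranged from 30 to 40 over the alternatives other than the size rule, and the count of androgen-repressed genes higher was 3 in each of these. Only centring, quantile scaling, rescaling and the highest line could change the sign of a gene. Under these none of the 111 named genes that were called changed direction. The pseudocount of 5 took 30 of them below the rule, among them SPDEF, KLK15, MSMB, SOX9 and AHR, and scaling took PRIM1, SPDEF and C1orf51 (CIART) below it. Depth limits genes with short transcripts most.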

Other observations

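MSX2P1, a pseudogene picked after its values were seen, stood at 54.3 FPKM with vehicle and 0.205 FPKM with ENZ, 278 fragments and 1 on its only annotated transcript, a ratio of 0.00376 with an exact 95% interval that ends at 0.0211 and covers counting error only. RP11-292K15.1 and RP11-583F2.6, both at 0 with ENZ, held the same vehicle value. Of the 47 genes at 5 FPKM or more with vehicle and at 0 with ENZ, 4 shared their vehicle value with another. Among WNT receptors with 1 annotated transcript, FZD7 had 41 and 106 fragments, a ratio of 2.71 (1.87 to 3.98) with a log2 change of 0.96, under the size rule, while FZD1 had 698 and 703, a ratio of 1.05 (0.948 to 1.17), and FZD4 had 509 and 595, a ratio of 1.22 (1.08 to 1.38). The clock repressor NR1D1 had 83 and 159 fragments, a ratio of 2.00 (1.53 to 2.65), and was likewise not called.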
